A study of Mus musculus with 8 samples.

Results

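The 10 genes examined here encode 8 cyclins (*Ccnd1*, *Ccnd2*, *Ccnd3*, *Ccne1*, *Ccne2*, *Ccna2*, *Ccnb1*, and *Ccnb2*) and 2 cyclin-dependent kinases (*Cdk1* and *Cdk6*). They were taken by gene symbol from a table of 55450 genes, and all 10 passed the filter on low counts that left 21451 genes for testing. Cyclins are regulatory proteins whose abundance rises and falls through the cell cycle, and each binds and activates a cyclin-dependent kinase (CDK). D-type cyclins act with CDK4 and CDK6 in G1 and link growth signals to the retinoblastoma protein, E-type cyclins act with CDK2 at entry into S phase, cyclin A2 acts in S and G2, and the B-type cyclins act with CDK1 in mitosis. Thymic epithelial cells (TECs) divide during embryonic growth of the thymus, and medullary TECs that express the receptor RANK are known to respond to its ligand by proliferating and maturing.

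RNA was sequenced from 3 populations of CD45-EpCAM+ TECs sorted at embryonic day 17 (E17). Every embryo carried a tdTomato knock-in at the *Ccl21a* locus and a RANK-Venus reporter for *Tnfrsf11a*, so no group lacked the reporter alleles. CCL21+RANK- TECs (tdTomato+Venus-, 3 libraries), CCL21-RANK+ TECs (tdTomato-Venus+, 3 libraries), and CCL21-RANK- TECs (tdTomato-Venus-, 2 libraries) were defined by reporter fluorescence and not by the proteins themselves, and are called CCL21+, RANK+, and double-negative TECs here. Strain, sex, and the number of embryos pooled are not given in the labels, and they do not say whether libraries came from separate litters. The study describes its replicates as biological, and p-values here measure the spread between these libraries. The libraries held 42751858 to 71625319 counts. Levels are given as RPKM (counts scaled to exon length and to the library total). Exon length is that of all annotated exons of a gene merged, so RPKM comparisons between different genes depend on the annotation. A gene was called different between groups where the adjusted p was under 0.05, the fold change exceeded 1.5, and the higher group had a mean above 1 RPKM. All adjusted p-values are Benjamini-Hochberg values over 21451 genes from edgeR's quasi-likelihood test, and each of the 3 comparisons shares a group with the other 2.

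The epithelial identity of the libraries was examined before the cyclins. *Foxn1*, the transcription factor that TECs depend on, was at 85.4, 93.2, and 105 RPKM in CCL21+, 54.5, 54.9, and 50.7 RPKM in RANK+, and 82.2 and 85.4 RPKM in double-negative libraries. *Epcam*, which was part of the sort, was at 49.5 to 156 RPKM in all 8 libraries, and *Ptprc*, which encodes CD45, was at no more than 0.576 RPKM. Of 12 TEC markers, 9 were lower and 1 (*Epcam*) was higher in RANK+ than in CCL21+ TECs, against 15.4% of all tested genes in each direction. The markers that differed most were *Ly75*, *Psmb11*, and *Pax1* (log2 fold changes of -4.06, -3.78, and -2.51), and the most abundant, *Krt18*, fell by 2.44 on the log2 scale. The summed level of the 12 markers was 5374, 5316, and 6137 RPKM in CCL21+, 1941, 2141, and 1752 RPKM in RANK+, and 4838 and 5164 RPKM in double-negative libraries.

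Markers of other cell types differed between groups and between libraries of a group. Summed over 4 parathyroid markers, of which *Chga* was the most abundant, CCL21+ libraries held 7122, 1750, and 1955 RPKM, against 11.1 to 24.9 RPKM in the other 5 libraries, and all 4 were called higher in CCL21+ TECs than in either other group. Replicate 1 of the CCL21+ group stood apart by this measure. Summed over 8 myeloid and B cell markers, led by *Lyz2*, RANK+ libraries held 61.2, 18.3, and 22.4 RPKM, and the other 5 libraries no more than 0.296 RPKM. Summed over 7 mesenchymal markers, led by *Col1a1*, RANK+ libraries held 52.7, 27.2, and 33.0 RPKM, and the other 5 no more than 4.03 RPKM. Replicate 1 of the RANK+ group was the highest in both lists, of which 4 of 8 and 5 of 7 genes were called higher in RANK+ than in CCL21+ TECs. In that comparison 15.4% of all tested genes were called higher, the share to set beside each count of markers called higher in RANK+ TECs here. The 13 thymocyte markers, led by *Rag1*, summed to 14.5, 6.43, and 8.29 RPKM in CCL21+, 33.7, 15.2, and 24.4 RPKM in RANK+, and 4.66 and 4.08 RPKM in double-negative libraries, with 3 of 13 called higher in RANK+ than in CCL21+ TECs. Of 5 endothelial markers, 1 (*Tek*) was called higher in RANK+ TECs, and their sum reached at most 4.08 RPKM. The 7 erythroid markers, led by *Hbb-bs*, summed to 6.61, 164, and 59.4 RPKM in CCL21+, 190, 286, and 301 RPKM in RANK+, and 453 and 57.1 RPKM in double-negative libraries, and 2 of 7 were called higher in RANK+ than in CCL21+ TECs. No marker of these lists was at 0 in all 8 libraries. The paper describes promiscuous expression of tissue-specific genes in medullary TECs with Aire. Whether these marker transcripts came from other cells or from the TECs themselves was not tested, nor was the part of other cells in the cyclin and CDK levels. With CCL21+ replicate 1 or RANK+ replicate 1 left out, the same 9 of the 10 genes were called between RANK+ and CCL21+ TECs in the same directions. The remaining libraries of each group still held these markers (parathyroid 1750 and 1955 RPKM in CCL21+, myeloid and B cell 18.3 and 22.4 RPKM in RANK+). These fits therefore cannot separate the markers from the group.

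Cyclin and CDK transcripts were most abundant in RANK+ TECs for 9 of the 10 genes by group mean, the exception being *Ccnd3*. Between RANK+ and CCL21+ TECs, 8 of 10 were higher and 1 was lower in RANK+ TECs, where 30.9% of all tested genes were called (15.4% higher and 15.4% lower). The median log2 fold change of the 10 genes was 1.97, against 0.11 for all tested genes. The libraries of these groups did not overlap in 9 of the 10, against 59.8% of all tested genes. Between CCL21+ and double-negative TECs, 1 of 10 was higher and 6 were lower in CCL21+ TECs, where 8.02% of all genes were called (4.35% higher and 3.66% lower), with a median log2 fold change of -1.12 against 0.00 for all genes. These counts rest on 2 double-negative libraries. Without replicate 1 of that group 0 were higher and 3 lower, without replicate 2 0 were higher and 4 lower, and the calls among all genes fell from 1720 to 772 and 657. Without CCL21+ replicate 1 also 0 were higher. The libraries did not overlap in 10 of 10, against 38.8% of all genes. Between RANK+ and double-negative TECs, 5 of 10 were higher and 1 was lower in RANK+ TECs, where 29.5% of all genes were called (14.4% higher and 15.1% lower), with a median of 0.63 against 0.06. Of the 10, 3 were higher without either double-negative library or RANK+ replicate 2, and 7 without RANK+ replicate 1. The libraries did not overlap in 8 of 10, against 65.8% of all genes. In bulk libraries, a smaller share of dividing cells and less of a transcript per cell cannot be told apart.

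**Figure D1:**
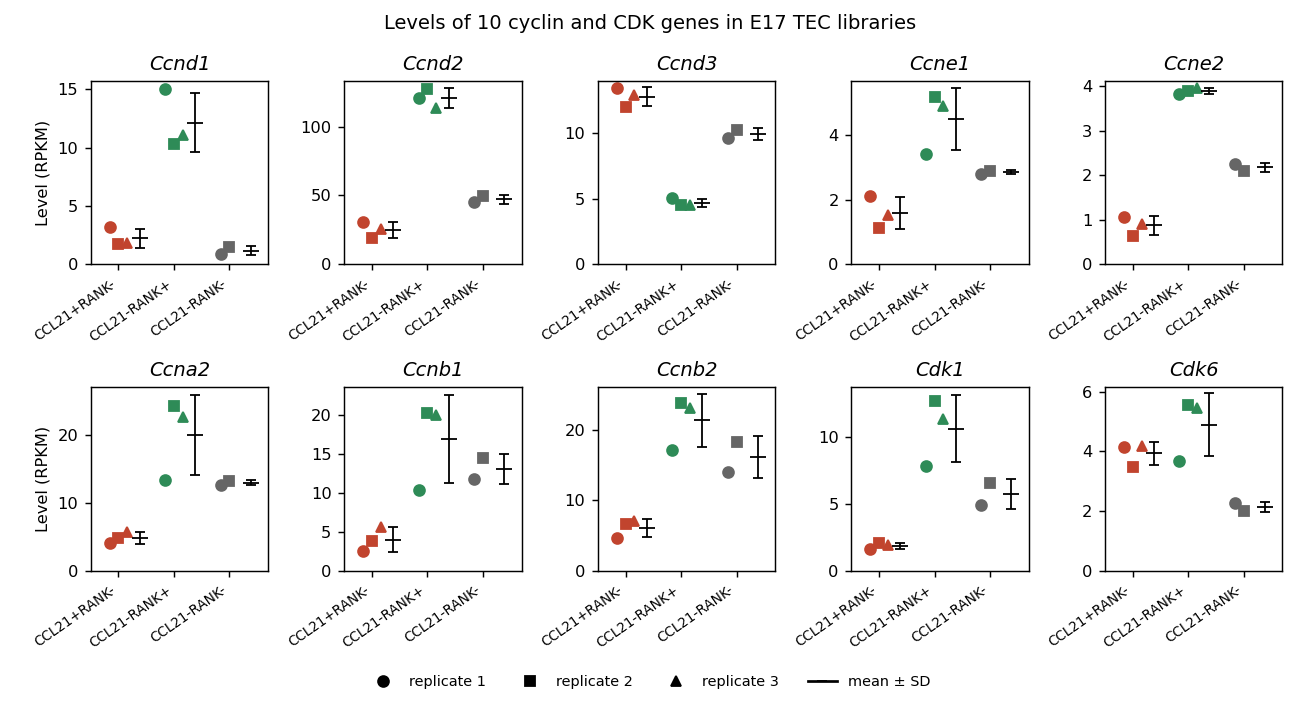
Each panel plots the level of 1 gene in RPKM (y axis, from 0) in the 3 TEC groups (x axis), with circles, squares, and triangles for replicates 1, 2, and 3 and a black bar for the mean ± SD. RANK+ libraries lie above both other groups for *Ccnd1*, *Ccnd2*, *Ccne1*, *Ccne2*, *Ccna2*, and *Cdk1* and below them for *Ccnd3*, whereas *Cdk6* is lowest in double-negative libraries.

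Among the D-type cyclins, which are the G1 partners of CDK4 and CDK6, *Ccnd2* had the highest RPKM in every library. The merged exons of *Ccnd1*, *Ccnd2*, and *Ccnd3* span 4709, 9409, and 8775 bases, and rankings and shares among the 3 genes depend on these lengths. *Ccnd2* (chromosome 6, 127125162 to 127152193, minus strand, GRCm38) was at 30.6, 19.3, and 25.5 RPKM in CCL21+, 121, 128, and 113 RPKM in RANK+, and 45.0 and 49.7 RPKM in double-negative libraries. The 3 groups did not overlap, with RANK+ the highest and CCL21+ the lowest. The log2 fold change of *Ccnd2* between RANK+ and CCL21+ TECs was 2.15 ± 0.16 (SE, adjusted p = 4.11e-06). It was 1.23 ± 0.18 between RANK+ and double-negative TECs (adjusted p = 0.000345) and -0.92 ± 0.17 between CCL21+ and double-negative TECs (adjusted p = 0.00771), and the last of these calls was lost without either of the 2 double-negative libraries (adjusted p = 0.0558 and 0.0605).

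*Ccnd1* (chromosome 7, 144929931 to 144939925, minus strand), a D-type cyclin known as a target of mitogenic signals, had a different order of the groups. Its level was 3.16, 1.72, and 1.83 RPKM in CCL21+, 15.0, 10.3, and 11.1 RPKM in RANK+, and 0.885 and 1.48 RPKM in double-negative libraries. Its level was thus lowest in double-negative TECs, the group in which *Ccnd2* was intermediate. The log2 fold change of *Ccnd1* was 2.31 ± 0.26 between RANK+ and CCL21+ TECs (adjusted p = 5.54e-05) and 3.25 ± 0.32 between RANK+ and double-negative TECs (adjusted p = 2.76e-05), the largest of the 10 genes in the latter comparison. Between CCL21+ and double-negative TECs, the log2 difference of 0.94 ± 0.29 did not pass the test (adjusted p = 0.0663). With single libraries left out, it ranged from 0.60 without CCL21+ replicate 1 to 1.26 without double-negative replicate 2 (adjusted p from 0.0459 to 0.384), and it passed in 1 of 8 such fits, without CCL21+ replicate 3. RANK+ replicate 1 had the highest *Ccnd1* of its group, and without it the log2 fold change against CCL21+ TECs was 2.18.

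*Ccnd3* (chromosome 17, 47505051 to 47599691, plus strand), the third D-type cyclin, ran the opposite way. Its level was 13.4, 11.9, and 12.9 RPKM in CCL21+, 5.02, 4.50, and 4.50 RPKM in RANK+, and 9.60 and 10.2 RPKM in double-negative libraries. The groups did not overlap, and their order was the reverse of that of *Ccnd2*. *Ccnd3* fell by 1.57 on the log2 scale (SE 0.09, adjusted p = 1.15e-06) between CCL21+ and RANK+ TECs and was lower by a log2 fold change of -1.20 ± 0.10 in RANK+ than in double-negative TECs (adjusted p = 8.36e-06). The log2 difference of 0.36 ± 0.10 between CCL21+ and double-negative TECs had an adjusted p of 0.0413 but was under the 1.5-fold threshold.

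The makeup of the D-type cyclins by RPKM therefore differed between groups. *Ccnd3* held 28.4%, 36.2%, and 32.1% of the summed D-type RPKM in CCL21+, 3.57%, 3.16%, and 3.49% in RANK+, and 17.3% and 16.6% in double-negative libraries. *Ccnd2* held 58.6% to 64.9%, 85.8% to 89.6%, and 81.0% to 81.1% in the same order, and *Ccnd1* 4.56% to 6.71%, 7.25% to 10.7%, and 1.59% to 2.41%. None of these shares overlapped between groups. For each share the exact permutation test gave p = 0.1 between RANK+ and CCL21+ TECs and p = 0.2 in comparisons with double-negative TECs (two-sided), the smallest that 3 against 3 and 3 against 2 libraries allow. The summed D-type level was 47.2, 33.0, and 40.2 RPKM in CCL21+, 141, 142, and 129 RPKM in RANK+, and 55.5 and 61.4 RPKM in double-negative libraries, again without overlap. The log2 ratio of *Ccnd2* over *Ccnd1* was 3.52 ± 0.26 (SD, n = 3) in CCL21+ and 3.33 ± 0.31 (SD, n = 3) in RANK+ libraries, which overlapped (difference -0.19, exact permutation p = 0.5, two-sided). In double-negative libraries it was 5.07 and 5.67, above every other library (exact permutation p = 0.2, two-sided, in both comparisons).

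**Figure D2:**
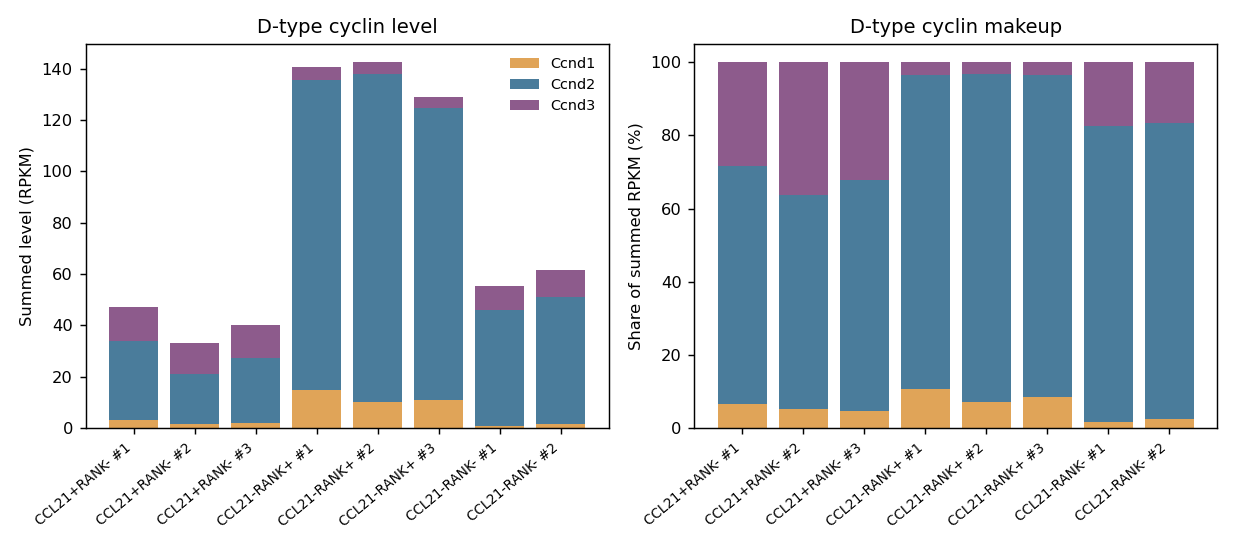
Stacked bars show *Ccnd1*, *Ccnd2*, and *Ccnd3* in each library, as summed RPKM (left, y axis from 0) and as a percentage of that sum (right, y axis from 0). *Ccnd3* takes 28.4% to 36.2% in CCL21+ libraries and 3.16% to 3.57% in RANK+ libraries, whose total is also the highest.

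The E-type cyclins, partners of CDK2 at the start of DNA replication, were the cyclin class with the lowest summed RPKM in each group. *Ccne1* (chromosome 7, 38097984 to 38107534, minus strand) was at 2.12, 1.13, and 1.53 RPKM in CCL21+, 3.40, 5.18, and 4.89 RPKM in RANK+, and 2.81 and 2.88 RPKM in double-negative libraries. *Ccne2* (chromosome 4, 11191351 to 11204779, plus strand) was at 1.06, 0.647, and 0.914 RPKM in CCL21+, 3.83, 3.89, and 3.95 RPKM in RANK+, and 2.25 and 2.11 RPKM in double-negative libraries. For both genes the groups did not overlap, and double-negative libraries lay between the other 2 groups. Between RANK+ and CCL21+ TECs, the log2 fold change was 1.39 ± 0.27 for *Ccne1* (adjusted p = 0.00196) and 2.04 ± 0.21 for *Ccne2* (adjusted p = 3.22e-05). *Ccne2* was also lower in CCL21+ than in double-negative TECs (-1.32 ± 0.22, adjusted p = 0.00516) and higher in RANK+ than in double-negative TECs (0.71 ± 0.23, adjusted p = 0.0258). The former call was lost without double-negative replicate 1 (adjusted p = 0.0587), and the latter without either double-negative library or RANK+ replicate 2 (adjusted p from 0.0597 to 0.187). The corresponding log2 differences of *Ccne1* were -0.84 ± 0.29 (adjusted p = 0.104) and 0.55 ± 0.30 (adjusted p = 0.16), neither of which passed the test. Without RANK+ replicate 1, which also enters the shared estimate of the spread, both passed (-0.83, adjusted p = 0.0471, and 0.76, adjusted p = 0.0446), whereas in the other 7 fits that left out a library neither did (adjusted p up to 0.358 and 0.398).

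Cyclin A2 and the B-type cyclins, which act from S phase to mitosis, and *Cdk1*, the mitotic kinase, varied together. *Ccna2* (chromosome 3, 36564865 to 36572150, minus strand) was at 3.99, 4.81, and 5.71 RPKM in CCL21+, 13.3, 24.3, and 22.6 RPKM in RANK+, and 12.7 and 13.3 RPKM in double-negative libraries. *Ccnb1* (chromosome 13, 100778650 to 100786570, minus strand) was at 2.54, 3.75, and 5.66 RPKM in CCL21+, 10.4, 20.4, and 20.1 RPKM in RANK+, and 11.8 and 14.5 RPKM in double-negative libraries. RANK+ replicate 1 was the lowest of its group for both genes, and for *Ccnb1* it lay below both double-negative libraries. *Ccnb2* (chromosome 9, 70407692 to 70421547, minus strand) was at 4.56, 6.55, and 7.06 RPKM in CCL21+, 17.05, 23.7, and 23.1 RPKM in RANK+, and 14.1 and 18.3 RPKM in double-negative libraries. *Cdk1* (chromosome 10, 69335146 to 69352938, minus strand) was at 1.60, 2.02, and 1.92 RPKM in CCL21+, 7.81, 12.7, and 11.4 RPKM in RANK+, and 4.92 and 6.53 RPKM in double-negative libraries. All 3 CCL21+ libraries were below the other 5 for each of these 4 genes, and RANK+ and double-negative libraries overlapped for *Ccnb1* and *Ccnb2*.

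Between RANK+ and CCL21+ TECs, the log2 fold change was 1.95 ± 0.24 for *Ccna2* (adjusted p = 9.92e-05), 2.00 ± 0.32 for *Ccnb1* (adjusted p = 0.000561), 1.70 ± 0.21 for *Ccnb2* (adjusted p = 0.00011), and 2.41 ± 0.22 for *Cdk1* (adjusted p = 1.47e-05). All 4 were also lower in CCL21+ than in double-negative TECs, by log2 fold changes of -1.42 ± 0.25 for *Ccna2* (adjusted p = 0.00652), -1.73 ± 0.34 for *Ccnb1* (adjusted p = 0.0109), -1.41 ± 0.23 for *Ccnb2* (adjusted p = 0.00398), and -1.62 ± 0.23 for *Cdk1* (adjusted p = 0.00225). The call of *Ccnb1* was lost without either of the 2 double-negative libraries (adjusted p = 0.0506 and 0.0794). *Cdk1* was called higher in RANK+ than in double-negative TECs (0.79 ± 0.24, adjusted p = 0.0196), but not without either double-negative library or RANK+ replicate 2 (adjusted p from 0.0539 to 0.146). The other 3 had log2 differences of 0.53 ± 0.26 (*Ccna2*, adjusted p = 0.12), 0.27 ± 0.34 (*Ccnb1*, adjusted p = 0.546), and 0.30 ± 0.23 (*Ccnb2*, adjusted p = 0.316), which did not pass the test, although *Ccna2* did without RANK+ replicate 1 (0.79, adjusted p = 0.00211). Without RANK+ replicate 1, the log2 fold changes against CCL21+ TECs were 2.21 for *Ccna2*, 2.28 for *Ccnb1*, 1.88 for *Ccnb2*, and 2.63 for *Cdk1*. Without CCL21+ replicate 1 they were 1.83, 1.76, 1.54, and 2.32 in the same order, and each stayed called.

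**Figure D3:**
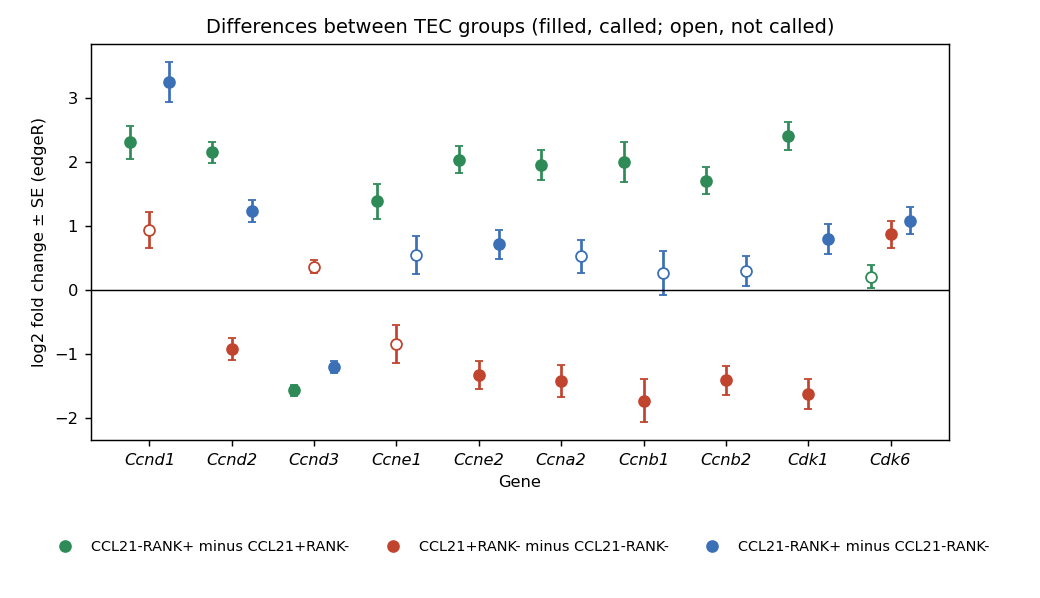
The y axis gives the log2 fold change of each of the 10 genes (x axis) in the 3 comparisons of TEC groups, with bars for ± 1 SE from edgeR and filled symbols for called differences. In the comparison of RANK+ with CCL21+ TECs, 8 genes lie between 1.39 and 2.41, *Cdk6* is at 0.21, and *Ccnd3* is at -1.57.

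Across the 8 libraries, Pearson's r of log2 CPM (counts scaled to the library total) lay between 0.95 and 0.98 for the pairs among *Ccna2*, *Ccnb1*, *Ccnb2*, and *Cdk1*. For r, the library total was adjusted by the TMM scaling factor of the fit, and a prior count of 2 was added before the log. These points share their libraries and group structure, so the values describe a common pattern over groups. Some pairs outside this set were as close, among them *Ccnd2* with *Ccne2* (r = 0.97) and *Ccne1* with *Ccne2* (r = 0.95). *Ccnd2* and *Ccnd3* ran opposite ways (r = -0.96). *Cdk1* was most like *Pclaf* (r = 0.996), *Spag5* (0.995), *Nuf2* (0.994), *Cenpa* (0.993), and *H2afz* (0.993), and *Ccnd2* was most like *Sema3c* (0.995), *Fzd10* (0.993), *Zdhhc13* (0.992), *Vps16* (0.992), and *Jade1* (0.990) among all tested genes over the 8 libraries. The log2 ratio of summed *Ccne1* and *Ccne2* over summed *Ccnb1* and *Ccnb2* RPKM was -1.16, -2.54, and -2.38 in CCL21+, -1.93, -2.28, and -2.29 in RANK+, and -2.35 and -2.71 in double-negative libraries. The difference between RANK+ and CCL21+ TECs was -0.14 (exact permutation p = 1, two-sided), and CCL21+ replicate 1, which also held the most parathyroid marker transcripts, was the highest of all libraries. Without it the difference was 0.29.

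The upstream sequences of *Cdk1*, *Ccnb1*, and *Ccnb2* are shown because these 3 mitotic genes varied together. RefSeq promoter windows of 300 bases (250 before and 50 after the start, GRCm38.p6) were found for 6 of the 10 genes, and the 150 bases before the start, given 5′ to 3′ on the gene's strand, are printed in lower case. Capitals mark 3 motifs that are known from cell cycle promoters, searched on both strands and not overlapping each other in these genes: the CHR (TTTGAA), the CCAAT box (CCAAT), and E2F sites (TTTCGCGC or TTTGGCGC). The windows lie at chr10:69352913-69353062, chr13:100786487-100786636, and chr9:70421555-70421704, all on the minus strand.
Cdk1: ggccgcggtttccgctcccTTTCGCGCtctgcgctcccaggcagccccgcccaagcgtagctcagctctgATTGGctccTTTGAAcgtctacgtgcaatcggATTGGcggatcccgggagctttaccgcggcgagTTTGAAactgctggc
Ccnb1: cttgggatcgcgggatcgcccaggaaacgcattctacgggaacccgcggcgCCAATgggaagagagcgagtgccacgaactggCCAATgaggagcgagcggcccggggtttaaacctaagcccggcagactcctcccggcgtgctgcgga
Ccnb2: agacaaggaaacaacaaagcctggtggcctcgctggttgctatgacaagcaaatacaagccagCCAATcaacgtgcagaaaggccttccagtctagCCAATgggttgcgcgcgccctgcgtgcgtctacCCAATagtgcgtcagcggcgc

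In the printed bases, *Cdk1* holds 2 CHR matches, 2 CCAAT boxes on the opposite strand, and 1 E2F match, *Ccnb1* holds 2 CCAAT boxes, and *Ccnb2* holds 3. In the whole 300-base windows *Ccnb2* also has 2 CHR matches, beginning 167 bases before and at base 5 after the start. CCAAT boxes were in 37.4% of the 32851 windows of all genes, the CHR in 17.9%, both in 6.95%, and an E2F match in 0.813%. The windows of *Ccne1* and *Cdk6* held none of these letters, and of 2 windows of *Ccnd3* 1 held a CCAAT box.

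*Cdk6* (chromosome 5, 3341485 to 3531008, plus strand), a kinase partner of the D-type cyclins, had the same order of group means as *Ccnd1*. It was at 4.14, 3.48, and 4.17 RPKM in CCL21+, 3.67, 5.57, and 5.44 RPKM in RANK+, and 2.26 and 2.01 RPKM in double-negative libraries. The CCL21+ and RANK+ libraries overlapped, and both lay above double-negative libraries. *Cdk6* was higher than in double-negative TECs in both CCL21+ (0.87 ± 0.21, adjusted p = 0.0263) and RANK+ TECs (1.08 ± 0.21, adjusted p = 0.00215). The former call was lost in 4 of 8 fits that left out a library, namely either double-negative library or CCL21+ replicate 1 or 3 (adjusted p from 0.0534 to 0.232). The log2 difference between RANK+ and CCL21+ TECs was 0.21 ± 0.18 (adjusted p = 0.356), and it ranged from 0.08 without RANK+ replicate 2 (adjusted p = 0.758) to 0.42 without RANK+ replicate 1 (adjusted p = 0.0120), under the fold threshold throughout. Across the 8 libraries, Pearson's r of *Cdk6* with the other 9 genes ranged from -0.38 to 0.64.

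Of the 5 other cyclins and kinases of the core cell cycle, *Cdk4*, the other kinase partner of the D-type cyclins, was at 48.6, 51.9, and 63.8 RPKM in CCL21+, 46.5, 62.9, and 60.2 RPKM in RANK+, and 81.7 and 103 RPKM in double-negative libraries. *Cdk4* was thus far above *Cdk6* in RPKM (merged exons of 3249 and 13989 bases), and the ratio of *Cdk6* over *Cdk4* RPKM was 0.0654 to 0.0851, 0.0790 to 0.0905, and 0.0195 to 0.0277 in the same order. *Cdk4* was lower than in double-negative TECs in both CCL21+ (-0.75 ± 0.17, adjusted p = 0.0212) and RANK+ TECs (-0.81 ± 0.17, adjusted p = 0.00341). *Cdk2*, the partner of the E-type cyclins, was at 3.84 to 4.29, 4.92 to 5.60, and 6.37 to 6.55 RPKM in the 3 groups, and was lower in CCL21+ than in double-negative TECs (-0.67 ± 0.11, adjusted p = 0.00531). Its log2 difference between RANK+ and CCL21+ TECs was 0.24 ± 0.10 (adjusted p = 0.0796). *Ccnf*, which encodes the F-box protein cyclin F, was at 1.09 to 1.82, 3.55 to 7.85, and 3.76 to 4.07 RPKM and was called higher in RANK+ than in CCL21+ TECs (2.08 ± 0.30, adjusted p = 0.000316). *Ccna1* was at no more than 0.185 RPKM in any library, and *Ccnb3*, at no more than 0.0459 RPKM, did not pass the filter on low counts.

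Regulators and binding partners of CDK1 and CDK2 were examined as a list of 11 genes. All were higher in RANK+ than in CCL21+ TECs (median log2 fold change 1.46), against 15.4% of all tested genes. Against double-negative TECs, 8 of 11 were lower in CCL21+ TECs (median -1.20), and 4 were higher in RANK+ TECs (median 0.35). The shares of all tested genes were 3.66% and 14.4%. *Cdc25c* and *Cdc25b*, phosphatases that activate CDK1, rose by log2 fold changes of 3.52 and 2.22 between CCL21+ and RANK+ TECs, and *Aurka*, a mitotic kinase, by 2.29. *Plk1*, the most abundant of the list, was at 7.74 ± 2.31, 29.7 ± 9.81 (SD, n = 3 each), and 21.8 ± 3.63 RPKM (SD, n = 2) in CCL21+, RANK+, and double-negative TECs. All 9 proliferation markers were likewise higher in RANK+ than in CCL21+ TECs (median 1.83), with *Cenpa*, *Bub1*, and *Top2a* changed most (2.44, 2.41, and 1.98). Against double-negative TECs, 8 of 9 were lower in CCL21+ (median -1.41) and 1 was higher in RANK+ TECs (median 0.39).

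Among 15 genes of DNA replication and nucleotide synthesis that E2F factors are known to control, 12 were higher in RANK+ than in CCL21+ TECs (median 1.05), led by *Rrm2*, *Tyms*, and *Cdc45* (2.01, 1.64, and 1.39). The most abundant, *Pcna*, the sliding clamp of DNA polymerase, had a log2 fold change of 0.88. Against double-negative TECs, 11 of 15 were lower in CCL21+ (median -0.87), and 2 were higher and 1 lower in RANK+ TECs (median 0.03). Of 19 genes of the retinoblastoma, E2F, and DREAM proteins and their partners, 7 were higher and 2 lower in RANK+ than in CCL21+ TECs, with a median of -0.03. For this comparison the share of all tested genes was 15.4% in each direction. *E2f2* and *Mybl2* rose by log2 fold changes of 2.53 and 2.04, whereas *Tfdp2*, an E2F dimerization partner, fell by 1.53 on the log2 scale and its relative *Tfdp1* rose by 0.72. Against double-negative TECs, 2 of 19 were lower in CCL21+ (median -0.18), and 6 were higher and 3 lower in RANK+ TECs (median -0.20). The shares of all tested genes were 3.66% lower in CCL21+, and 14.4% higher and 15.1% lower in RANK+ TECs.

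Genes for the degradation of cyclins by ubiquitin ligases were taken as a further list. The list held subunits, activators, and partner enzymes of the ligases and *Fbxo5*, whose product inhibits the anaphase-promoting complex. Of 11, 5 were higher and 1 was lower in RANK+ than in CCL21+ TECs (median 0.10), *Fbxo5* among those higher. Over all tested genes, 15.4% were called higher and 15.4% lower in this comparison. *Ube2c* and *Cdc20*, which act with the anaphase-promoting complex on mitotic cyclins, rose by log2 fold changes of 2.36 and 1.70. *Fbxw7*, the F-box protein that targets cyclin E, was at 18.1, 15.0, and 18.0 RPKM in CCL21+, 5.18, 5.60, and 4.93 RPKM in RANK+, and 15.7 and 17.6 RPKM in double-negative libraries. It was lower in every RANK+ library than in the other 5 and fell by 1.82 on the log2 scale (adjusted p = 1.19e-06) between CCL21+ and RANK+ TECs. The most abundant of the list, *Anapc2*, had a log2 difference of -0.33, under the fold threshold. Against double-negative TECs, 4 of 11 were lower in CCL21+ (median -0.45), and 1 was higher and 3 lower in RANK+ TECs (median -0.26). The shares of all tested genes were 3.66% lower in CCL21+, and 14.4% higher and 15.1% lower in RANK+ TECs.

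CDK inhibitors, which oppose the kinases, were also examined. Of 7, 5 were higher in RANK+ than in CCL21+ TECs (median 1.72) and 5 than in double-negative TECs (median 1.49), against 15.4% and 14.4% of all tested genes. The median log2 difference between CCL21+ and double-negative TECs was 0.01. *Cdkn2b*, an inhibitor of CDK4 and CDK6, was at 0.818 ± 0.0587, 16.5 ± 4.66 (SD, n = 3 each), and 0.443 ± 0.0690 RPKM (SD, n = 2) in CCL21+, RANK+, and double-negative TECs. *Cdkn1c*, which inhibits several CDKs, was at 37.1, 22.6, and 26.1 RPKM in CCL21+, 314, 84.1, and 122 RPKM in RANK+, and 49.3 and 62.0 RPKM in double-negative libraries. RANK+ replicate 1, the highest for *Cdkn1c*, was the lowest of its group for the mitotic cyclins and the highest for the mesenchymal (52.7, 27.2, and 33.0 RPKM in RANK+ libraries) and the myeloid and B cell markers (61.2, 18.3, and 22.4 RPKM), whose part in the level of *Cdkn1c* was not tested. *Cdkn2a* had 0 counts in the CCL21+ libraries and a mean of 8.79 RPKM in RANK+ libraries.

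Growth factor receptors, transcription factors, and Wnt pathway genes linked to the control of D-type cyclins changed in both directions. Of 15, 5 were higher and 7 lower in RANK+ than in CCL21+ TECs (median -0.68), against 15.4% of all tested genes in each direction. *Fgfr3* and *Lef1* rose by log2 fold changes of 4.02 and 2.47, and *Fgfr2* fell by 2.49 on the log2 scale. The most abundant, *Ctnnb1*, which encodes β-catenin, fell by 0.68. Against double-negative TECs, 3 were higher and 3 lower in CCL21+ (median -0.10), and 4 were higher and 7 lower in RANK+ TECs (median -0.44). The shares of all tested genes were 4.35% and 3.66% in CCL21+, and 14.4% and 15.1% in RANK+ TECs.

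Further cyclins, CDKs, and related proteins were examined in 2 lists. Between RANK+ and CCL21+ TECs, 15.4% of all tested genes were called higher and 15.4% lower. Of 15 linked to transcription, which include *Cdk7*, *Ccnh*, and *Mnat1* of the CDK-activating kinase, 1 was higher and 2 lower in RANK+ than in CCL21+ TECs (median -0.07). These were *Ccnc* (0.60), *Cdk7*, the catalytic subunit of that kinase (-0.94), and *Cdk8* (-0.58), whereas *Ccnk*, the most abundant, had a log2 difference of 0.07 (adjusted p = 0.624). Against double-negative TECs, 1 of 15 was higher in CCL21+ (median -0.04) and 1 was lower in RANK+ TECs (median -0.14), beside 4.35% and 15.1% of all tested genes. The other list held 22 other cyclins, CDKs, and relatives of either. Beside the same 15.4% of all tested genes in each direction, 1 was higher and 5 lower in RANK+ than in CCL21+ TECs (median -0.17). Among those with at least 5 CPM in the higher group, *Cdk20* had the largest change and fell by 3.33 on the log2 scale, from 22.7, 25.6, and 27.2 RPKM in CCL21+ to 1.97, 3.98, and 2.10 RPKM in RANK+ libraries, and it was at 18.0 and 19.7 RPKM in double-negative libraries. *Ccnjl* and *Ccnyl1* fell by 1.30 and 0.78, and *Ccni*, the most abundant, had a log2 difference of -0.37 that was under the fold threshold. Against double-negative TECs, 1 of 22 was higher in CCL21+ (median -0.07) and 4 were lower in RANK+ TECs (median -0.21), beside 4.35% and 15.1% of all tested genes.

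**Figure D4:**
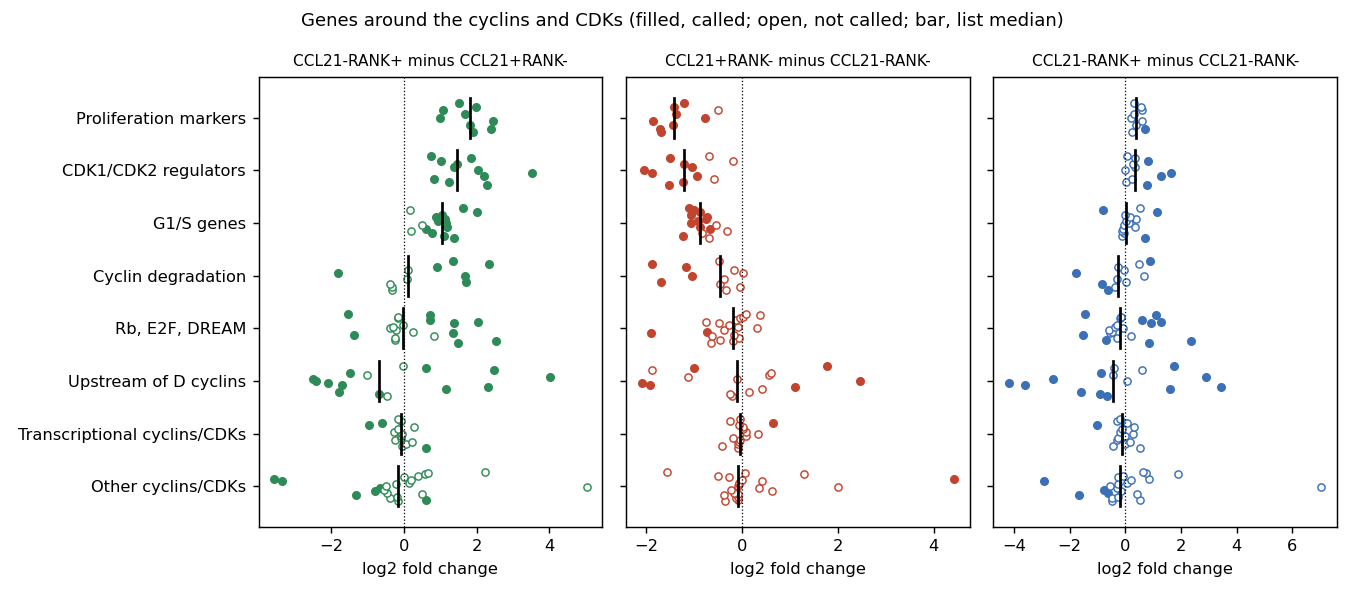
Each point is 1 gene of 8 lists (y axis), placed by its log2 fold change (x axis) in the 3 comparisons, filled where called and open where not, with a black bar at the list's median. Proliferation markers and CDK1/CDK2 regulators lie to the right in the left panel (medians 1.83 and 1.46) and to the left in the middle panel (medians -1.41 and -1.20), and transcriptional cyclins and CDKs lie near 0 (median -0.07 in the left panel).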

How the data were processed

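RNA-sequencing counts of 8 libraries were analysed. The authors deposited expected counts per gene from RSEM, which divides reads between genes and isoforms; values were not normalized. The processing notes list bcl2fastq 2.20, Trimmomatic, STAR 2.5.1, RSEM 1.3.1, and mm10, whereas the study's methods name CLC Genomics Workbench 12.0. The labels name the NEBNext Ultra II Directional kit and the methods the TruSeq Stranded Total RNA kit. Whether counting used strand is not given in the sources used here, so reads of *Ccna2*, *Ccnd1*, *Ccnd3*, and *Ccne2* may include those of genes that overlap them on the other strand. Pseudogenes of *Ccnb1*, *Ccnb2*, and *Ccnd3* held at most 17.0 counts.

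All 55450 identifiers matched GENCODE release M21 (GRCm38), which gave positions and exon lengths for RPKM. Counts were rounded and fitted in edgeR 4.0.16 (R 4.3.3) with TMM scaling, filterByExpr at its defaults, 1 mean per group, and the quasi-likelihood test. SEs were derived from the F statistic. *Gm26917* and *Gm42418* together took 8.36% to 23.2% of each library, which lowers the RPKM of other genes. Counts of replicate libraries differed beyond sampling noise in every pair. On counts simulated for the comparison of RANK+ with CCL21+ TECs (21451 genes), 33 of 100 genes changed by 1 on the log2 scale and 67 of 100 changed by 2 were recovered, with 3 false calls. Recovery required an adjusted p under 0.05 and the right direction, without the fold and level thresholds. Only 200 genes were changed, against 6618 called in the data, so these rates do not describe the calls reported here.

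The 10 genes and all gene lists were chosen with earlier results of these data known. Named were the 10 genes, 5 other core cyclins and CDKs, and from each list the 3 called genes with the largest change between RANK+ and CCL21+ TECs and a mean of at least 5 CPM in the higher group, plus the most abundant. Other genes (*Foxn1*, *Epcam*, *Ptprc*) were chosen for the check of identity, and *Fbxo5* was named for its role after its values were seen. Alternatives were other scaling (DESeq2 1.42.0 size factors, upper quartile, without the 2 *Gm* genes), DESeq2's Wald test, a test against the 1.5-fold threshold, other filters, a fit of only the 2 groups in question, a replicate block, the adjusted p alone, and leaving out each library. Counting error is not the limit at these depths, and reads were not deduplicated molecules.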

Additional observations from a re-analysis of the deposited data

How the results depend on the processing

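Between RANK+ and CCL21+ TECs, the 8 genes called higher and 1 lower kept their calls and directions under all alternatives, leave-one-out included. When the adjusted p alone was required, 11516 genes were called in that comparison and 10501 between RANK+ and double-negative TECs, since the fold and level thresholds were dropped. Leaving out each library gave 6202 to 6714 genes, 657 to 2066 between CCL21+ and double-negative TECs (772 without double-negative replicate 1, 657 without replicate 2), and 5347 to 6546 between RANK+ and double-negative TECs. With 1 double-negative library left, it is assumed to vary like the other groups.

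Between CCL21+ and double-negative TECs, the test against the 1.5-fold threshold called 676 genes, with 0 of the 10 higher. DESeq2's Wald test, no expression filter, at least 10 counts in every library, and the adjusted p alone each gave 2 higher. Leaving out libraries gave 0 to 1 higher and 3 to 7 lower. Between RANK+ and double-negative TECs, the test against the 1.5-fold threshold gave 3 higher, and leaving out libraries gave 3 to 7. Of the single-gene log2 fold changes under alternatives, 11 lost and 6 gained a call of 180 in the former comparison, and 8 lost and 4 gained a call in the latter.

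Replicate numbers were shared between groups, and same-numbered CCL21+ and RANK+ libraries deviated together weakly (r = 0.126, 0.0485, and 0.0707). Different-numbered libraries of these groups had lower values (r from -0.0984 to 0.0410). Same-numbered pairs with double-negative libraries had r from -0.117 to -0.0411. The numbers were not taken as pairs in the main fit, and whether they mark matched sorts is not given. With the replicate block, 6617, 1913, and 6324 genes were called in the 3 comparisons, in place of 6618, 1720, and 6332, and the counts of the 10 genes called did not change. The uncalled log2 difference of *Ccnb1* between RANK+ and double-negative TECs reversed under the block, from 0.27 to -0.0101. DESeq2's size factors raised the median log2 fold change of all genes in that comparison from 0.06 to 0.20.

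The difference in the log2 ratio of E-type over B-type cyclins between RANK+ and CCL21+ TECs ranged from -0.40 to 0.29 when libraries were left out, with 0.29 without CCL21+ replicate 1. The cause of these changes was not tested.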
